A study of Drosophila melanogaster with 8 samples.

Results

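The CPR genes of Drosophila melanogaster encode cuticular proteins, and the genes described here are those whose symbol is Cpr followed by a number: 64 of the 16018 genes in the deposited table. The number and letters of each symbol give the cytological band of the gene. The gene called Cpr alone, which encodes cytochrome P450 reductase, is not one of them. Of the 64 genes, 27 passed the filter for low values used here, which asked for at least 1 count per 1000000 counts in at least 2 libraries, and 12570 genes of the whole table passed it. RNA-seq libraries of poly(A)+ RNA were made from testes of 2 crosses, in which GAL4 drove green fluorescent protein (GFP) from UAS-GFP. The groups were GFP-positive cells sorted from tj-GAL4 x UAS-GFP testes, the unsorted cell suspension of testes of that cross, GFP-positive cells sorted from eya-GAL4 x UAS-GFP testes, and the unsorted suspension of that cross, each with 2 libraries. All 8 libraries therefore came from animals carrying a GAL4 driver and UAS-GFP, and the sources used here do not give the age of the flies. The driver decides which cells are sorted: tj-GAL4 was used for early cyst cells and eya-GAL4 for mature cyst cells. The labels call the libraries biological replicates without naming the animals, so the p-values measure the spread between these libraries.

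Cyst cells are the somatic cells that enclose the developing germ cells of the testis. CPR proteins carry the Rebers and Riddiford consensus, a stretch that binds chitin, and are best known as structural proteins of the cuticle that epidermal and tracheal cells secrete on their apical side. They are one of several families of cuticle proteins, and chitin synthases, deacetylases, chitinases and tanning enzymes make and remodel the matrix around them. For most CPR genes the role of the single protein is not described, so the members below are ordered by how they behaved and by their place in the genome.

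Each library held 10771009 to 25344721 counts over genes, and mitochondrially encoded genes took 4.68 to 31.7% of them. The 9 early cyst cell markers summed to 684 to 888 CPM in tj-GAL4 sorted libraries, against 318 to 406 CPM in tj-GAL4 unsorted libraries. The 4 mature cyst cell markers summed to 283 to 294 CPM in eya-GAL4 sorted libraries, against 66.9 to 69.6 CPM in eya-GAL4 unsorted libraries. The mature list was at 252 to 352 CPM in tj-GAL4 sorted libraries, against 68.9 to 73.2 CPM in tj-GAL4 unsorted libraries, and the early list at 597 to 732 CPM in eya-GAL4 sorted libraries, against 415 to 427 CPM in eya-GAL4 unsorted libraries. The sums did not hold for every member. In the eya-GAL4 cross, dome had 405 and 331 CPM sorted, against 72.7 and 76.6 CPM unsorted. There tj, Socs36E, fs(1)Yb, piwi and stg were higher in sorted cells too, while ptc overlapped. Lower when sorted were chinmo (65.2 and 62.5 CPM, against 235 and 240 CPM) and zfh1 (18.3 and 16.25 CPM, against 31.5 and 31.2 CPM). Of the mature list, Abd-B was lower in sorted cells of both crosses, and eya, so and Six4 were higher. CPM here means counts per 1000000 on library sizes adjusted by edgeR's TMM factors. No marker found in the table was at 0 in every library. The tj-GAL4 unsorted library 2 stood apart in fat body markers, which summed to 391 CPM there and 45.5 to 91.4 CPM in the other 3 unsorted libraries, and it had the highest mitochondrial share. In such bulk libraries, fewer cells of a type and less RNA per cell cannot be told apart.

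Most CPR genes were barely read in these testes. Of the 37 genes that missed the filter, 19 had at most 3 reads in every library, with totals over all 8 libraries of 1 to 10 reads. The other 18 had 5 to 231 reads in total. The 27 genes that passed had 80 to 4830 reads in total, with a median of 431. None of the 3 X-linked members passed, and neither did 4 of the 5 on 2L, while all 5 on 3R did, with 8 of 20 on 2R and 13 of 31 on 3L. In a library, 3 reads correspond to 0.112 to 0.310 CPM, which is the level below which a gene could not be distinguished from absence, for counting error only. A gene could pass on the strength of 1 group alone, so what follows about the 27 genes is not a statement about all 64. Cpr60D passed through the eya-GAL4 unsorted libraries and Cpr76Bb through the eya-GAL4 sorted ones. Both are counted among the calls of the eya-GAL4 comparison below.

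Summed over the 64 genes, CPR reads were more abundant in both kinds of sorted cell. The family summed to 230 and 173 CPM in tj-GAL4 sorted libraries 1 and 2, against 109 and 127 CPM in tj-GAL4 unsorted libraries 1 and 2. It summed to 290 and 318 CPM in eya-GAL4 sorted libraries 1 and 2, against 90.2 and 89.3 CPM in the eya-GAL4 unsorted libraries, which the table numbers 3 and 4. In both crosses the sorted libraries lay above the unsorted ones without overlap. In the tj-GAL4 cross this rested on Cpr66Cb and Cpr97Eb: the other 62 genes summed to 105 and 106 CPM in sorted libraries, against 105 and 125 CPM in unsorted libraries. These 62 genes in the eya-GAL4 cross summed to 125 and 140 CPM in sorted libraries, against 85.7 and 87.9 CPM in unsorted libraries. Which gene led the family also differed. Cpr66Cb supplied 33.6% of the CPR reads in tj-GAL4 sorted library 1 (95% Wilson interval 32.0 to 35.3) and 18.2% in library 2 (17.1 to 19.4), where Cpr97Eb led with 20.4% (19.2 to 21.6). In eya-GAL4 sorted libraries Cpr66Cb supplied 38.2% (36.4 to 40.03) and 34.8% (33.5 to 36.1). In the unsorted libraries Cpr66Cb was at 0.309 to 3.04% of CPR reads, and Cpr56F led in 3 of the 4 libraries with 36.8 to 43.8%. In the tj-GAL4 unsorted library 2 Cpr47Ee led with 16.02% (14.3 to 17.9), and Cpr56F was at 9.46%.

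**Figure D1:**
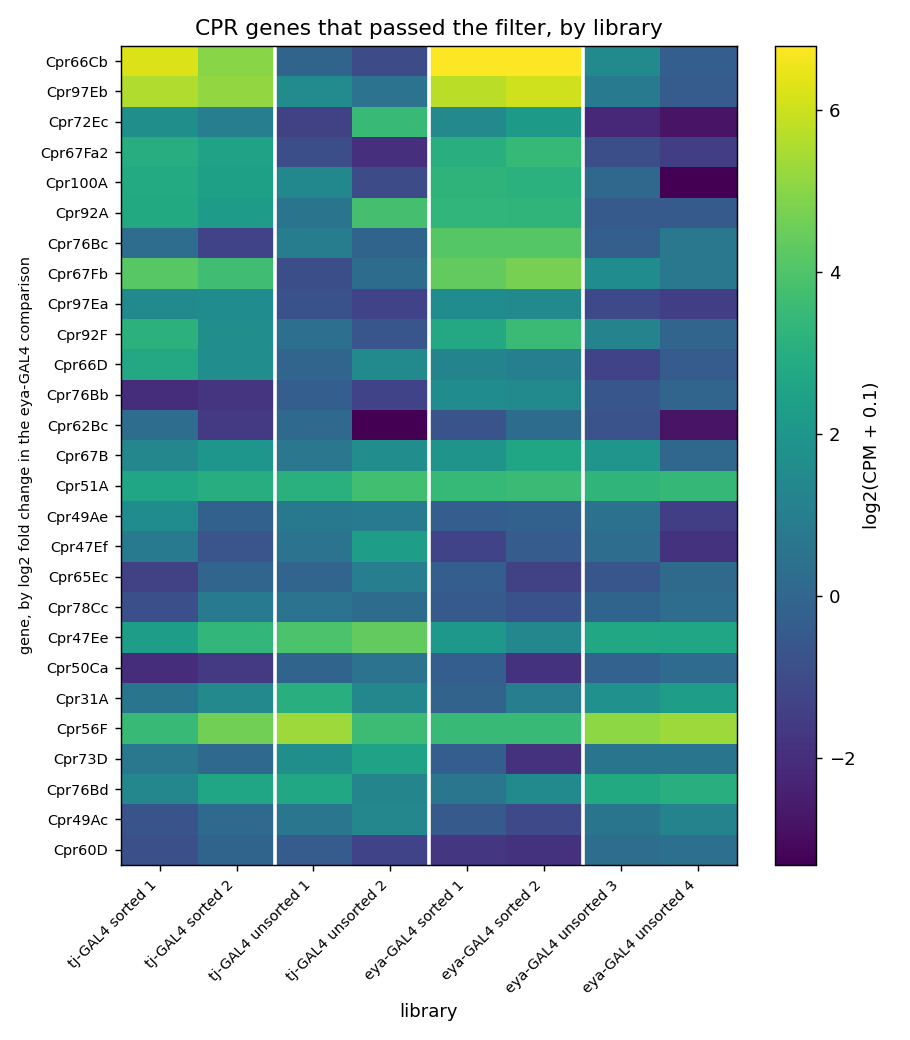
Level of the 27 CPR genes that passed the filter (rows, ordered by their log2 fold change between eya-GAL4 sorted and unsorted cells) in the 8 libraries (columns), coloured by log2(CPM + 0.1). Cpr66Cb and Cpr97Eb at the top are bright in the 4 sorted libraries, and Cpr56F near the bottom is brightest in 3 of the 4 unsorted libraries.

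The first comparison set sorted against unsorted cells within each cross. Among the 27 genes, 6 rose in tj-GAL4 sorted cells and 0 fell, by edgeR's quasi-likelihood test at a Benjamini-Hochberg adjusted p under 0.05 over all 12570 genes. That is 22.2% of the members that passed, against 8.98% of all genes tested that rose and 2.38% that fell. In eya-GAL4 sorted cells 12 rose and 4 fell, or 44.4% and 14.8% of the 27, against 28.0% and 20.0% of all genes tested (48.0% in either direction). The median log2 fold change of the 27 genes was -0.16 in the tj-GAL4 comparison, against -0.08 for all genes tested, and 1.09 in the eya-GAL4 comparison, against -0.09. In the tj-GAL4 comparison the members' median thus lay close to that of all genes, and the 6 risers stood beside 15 members with a negative fold change. Without overlap between the groups, 8 members were higher and 7 lower in tj-GAL4 sorted cells (32.9% and 22.9% of all genes tested), and 14 were higher and 9 lower in eya-GAL4 sorted cells (42.0% and 44.3%). The tj-GAL4 count was 12 without unsorted library 1 and 11 without unsorted library 2, where 26.8% and 35.4% of all genes were called, against 11.4% with all libraries. The eya-GAL4 count was 7 and 6 without sorted libraries 1 and 2 (20.6% and 15.7% of all genes), and 8 and 5 without unsorted libraries 3 and 4 (17.2% and 10.8%).

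Cpr66Cb, Cpr97Eb, Cpr67Fb, Cpr67Fa2, Cpr97Ea and Cpr92F are the 6 that rose in the tj-GAL4 comparison, and all 6 rose in the eya-GAL4 comparison too. Cpr66Cb (3L:8336672-8338595, plus strand, dm6) had 77.5 and 31.6 CPM in tj-GAL4 sorted libraries, against 0.855 and 0.392 CPM in tj-GAL4 unsorted libraries. It had 111 and 110 CPM in eya-GAL4 sorted libraries, against 2.74 and 0.711 CPM in eya-GAL4 unsorted libraries. Every sorted library was far above every unsorted one, and in tj-GAL4 sorted cells library 1 was the higher of the pair. The log2 fold change of Cpr66Cb was 6.35 ± 0.79 (SE; edgeR adjusted p = 0.003) in the tj-GAL4 comparison and 6.03 ± 0.76 (adjusted p = 0.0013) in the eya-GAL4 comparison. Ordered by log2 fold change among the 12570 genes, Cpr66Cb stood at rank 3 in the tj-GAL4 comparison and at rank 32 in the eya-GAL4 comparison. By level per length it ranked 868 in eya-GAL4 sorted cells, at 110.5 CPM per kb of exon, where the median gene tested had 9.998 CPM per kb. In tj-GAL4 sorted cells it ranked 1889, and in the unsorted suspensions it ranked 11663 for tj-GAL4 and 10018 for eya-GAL4.

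Cpr97Eb (3R:27089704-27091130, minus strand) followed the same pattern at a lower level. It had 47.7 and 35.3 CPM in tj-GAL4 sorted libraries, against 2.83 and 1.33 CPM in tj-GAL4 unsorted libraries. It had 53.8 and 66.9 CPM in eya-GAL4 sorted libraries, against 1.74 and 0.667 CPM in eya-GAL4 unsorted libraries. The 4 sorted libraries lay within a factor of 2 of each other, and none of the unsorted libraries came near them. Cpr97Eb gave a log2 fold change of 4.28 ± 0.55 (edgeR adjusted p = 0.0031) in the tj-GAL4 comparison and 5.67 ± 0.59 (adjusted p = 0.00057) in the eya-GAL4 comparison. Its neighbour Cpr97Ea (3R:27083130-27087778) lies 1925 bases away on the same strand and was read far less. Cpr97Ea had 2.77 and 2.90 CPM in tj-GAL4 sorted libraries, against 0.483 and 0.314 CPM in tj-GAL4 unsorted libraries. It had 2.89 and 2.73 CPM in eya-GAL4 sorted libraries, against 0.373 and 0.267 CPM in eya-GAL4 unsorted libraries. The sorted libraries of Cpr97Ea were close to each other and did not overlap the unsorted ones. For Cpr97Ea the log2 fold change was 2.77 ± 0.52 (edgeR adjusted p = 0.014) and 3.12 ± 0.54 (adjusted p = 0.004). The tj-GAL4 call was lost without sorted library 1 (adjusted p = 0.09) or sorted library 2 (0.057), and the eya-GAL4 call without unsorted library 4 (0.055).

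Cpr67Fb (3L:10894173-10894693, plus strand) had 17.7 and 12.9 CPM in tj-GAL4 sorted libraries, against 0.446 and 1.10 CPM in tj-GAL4 unsorted libraries. It had 20.6 and 26.2 CPM in eya-GAL4 sorted libraries, against 2.92 and 1.56 CPM in eya-GAL4 unsorted libraries. All sorted libraries were above all unsorted ones, with the eya-GAL4 suspensions the higher of the 2 kinds of suspension. The log2 fold change of Cpr67Fb was 4.38 ± 0.56 (edgeR adjusted p = 0.003) in the tj-GAL4 comparison and 3.39 ± 0.51 (adjusted p = 0.0024) in the eya-GAL4 comparison. Of its 457 exonic bases, 389 (85.1%) are overlapped by the antisense gene asRNA:CR45171, which had 87 and 133 reads in tj-GAL4 sorted libraries, against 65 and 16 in tj-GAL4 unsorted libraries. The antisense gene had 68 and 140 reads in eya-GAL4 sorted libraries, against 61 and 64 in eya-GAL4 unsorted libraries. The library kit keeps strand, but the sources used here do not say whether the counting used it, so the reads of this pair may not be separated.

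Cpr67Fa2 (3L:10891714-10892516, plus strand) had 7.78 and 5.61 CPM in tj-GAL4 sorted libraries, against 0.446 and 0.157 CPM in tj-GAL4 unsorted libraries. It had 8.27 and 10.7 CPM in eya-GAL4 sorted libraries, against 0.436 and 0.267 CPM in eya-GAL4 unsorted libraries. The 4 sorted libraries were alike and the 4 unsorted ones held 12 reads or fewer each. Cpr67Fa2 gave a log2 fold change of 4.32 ± 0.57 (edgeR adjusted p = 0.0033) and 4.76 ± 0.57 (adjusted p = 0.001). The adjacent gene Cpr67Fa1, 1013 bases away and named as its pair, had 1 read in all 8 libraries together, and the sources used here do not say how reads matching more than 1 gene were counted. Cpr92F (3R:20669571-20672821) had 9.06 and 3.14 CPM in tj-GAL4 sorted libraries, against 1.19 and 0.549 CPM in tj-GAL4 unsorted libraries. It had 6.82 and 11.95 CPM in eya-GAL4 sorted libraries, against 2.18 and 0.889 CPM in eya-GAL4 unsorted libraries. The sorted libraries were higher in both crosses without overlap. For Cpr92F the log2 fold change was 2.74 ± 0.72 (edgeR adjusted p = 0.045) in the tj-GAL4 comparison and 2.63 ± 0.70 (adjusted p = 0.018) in the eya-GAL4 comparison. The tj-GAL4 call was lost without any 1 of 6 libraries, with the highest adjusted p, 0.33, without sorted library 1. The eya-GAL4 call was lost without sorted library 2 or unsorted library 4, with an adjusted p of 0.12 in each case.

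**Figure D2:**
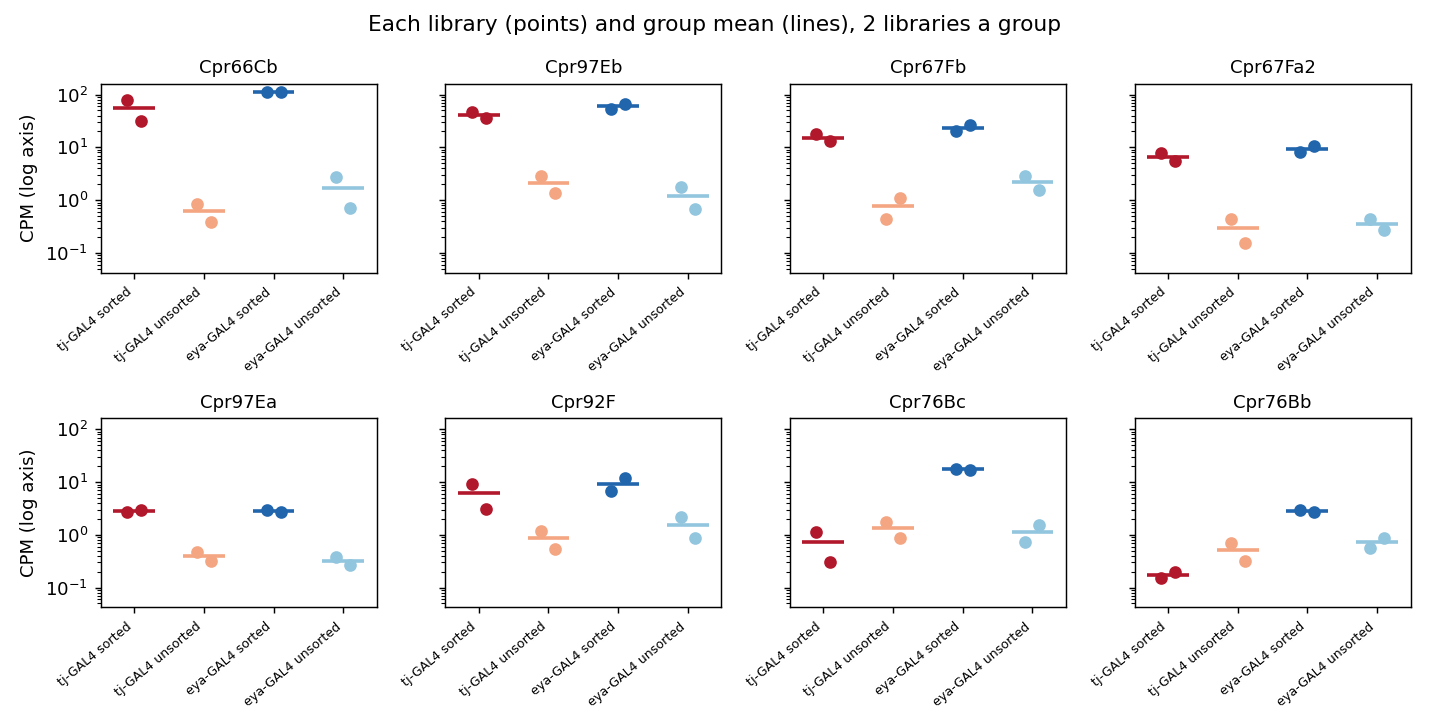
CPM on a log axis in each library (points; 2 per group) and the mean of each group (lines) for 8 CPR genes. Cpr66Cb, Cpr97Eb, Cpr67Fb, Cpr67Fa2, Cpr97Ea and Cpr92F were higher in both kinds of sorted cell than in the matching suspension, while Cpr76Bc and Cpr76Bb were high in eya-GAL4 sorted cells and not in tj-GAL4 sorted cells.

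Another 6 genes rose in eya-GAL4 sorted cells without a call in the tj-GAL4 comparison: Cpr76Bc, Cpr76Bb, Cpr92A, Cpr72Ec, Cpr100A and Cpr66D. Cpr76Bc (3L:19520945-19527272, plus strand) had 17.6 and 17.2 CPM in eya-GAL4 sorted libraries, against 0.747 and 1.56 CPM in eya-GAL4 unsorted libraries. It had 1.12 and 0.310 CPM in tj-GAL4 sorted libraries, against 1.79 and 0.863 CPM in tj-GAL4 unsorted libraries. The eya-GAL4 sorted libraries agreed closely and stood above the other 6, and the 2 kinds of tj-GAL4 library overlapped. The log2 fold change of Cpr76Bc was 3.89 ± 0.67 (edgeR adjusted p = 0.0038) in the eya-GAL4 comparison and -1.01 ± 0.67 (adjusted p = 0.32) in the tj-GAL4 comparison. Cpr76Bb (3L:19519649-19520419), which ends 525 bases before Cpr76Bc on the same strand, had 2.89 and 2.67 CPM in eya-GAL4 sorted libraries, against 0.560 and 0.889 CPM in eya-GAL4 unsorted libraries. It had 0.150 and 0.194 CPM in tj-GAL4 sorted libraries, which is 2 and 5 reads, against 0.706 and 0.314 CPM in tj-GAL4 unsorted libraries. For this gene the tj-GAL4 sorted libraries were the lowest of all and the eya-GAL4 sorted libraries the highest. Only the eya-GAL4 sorted libraries reached 1 CPM, so this gene passed the filter through the group where it was high. Cpr76Bb gave a log2 fold change of 1.92 ± 0.59 (edgeR adjusted p = 0.03) in the eya-GAL4 comparison and -1.56 ± 0.70 (adjusted p = 0.17) in the tj-GAL4 comparison. The eya-GAL4 call of Cpr76Bb was lost without any 1 of the 4 eya-GAL4 libraries, with adjusted p up to 0.16 (unsorted library 3), whereas that of Cpr76Bc was kept without each of the 8 libraries.

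Cpr92A (3R:19597502-19598955) and Cpr72Ec (3L:16365894-16367340) were high in both kinds of sorted cell and also in 1 suspension. Cpr92A had 7.03 and 4.68 CPM in tj-GAL4 sorted libraries, against 1.38 and 13.7 CPM in tj-GAL4 unsorted libraries. It had 9.92 and 9.64 CPM in eya-GAL4 sorted libraries, against 0.622 and 0.622 CPM in eya-GAL4 unsorted libraries. The tj-GAL4 unsorted library 2 was the highest of all 8, and the other 3 suspensions were the lowest. For Cpr92A the log2 fold change was 3.96 ± 0.95 (edgeR adjusted p = 0.013) in the eya-GAL4 comparison and -0.35 ± 0.82 (adjusted p = 0.77) in the tj-GAL4 comparison. Cpr72Ec had 3.22 and 1.90 CPM in tj-GAL4 sorted libraries, against 0.297 and 11.6 CPM in tj-GAL4 unsorted libraries. It had 2.58 and 4.49 CPM in eya-GAL4 sorted libraries, against 0.124 and 0.0445 CPM in eya-GAL4 unsorted libraries, the last being 1 read. Here too the tj-GAL4 unsorted library 2 exceeded every sorted library, and its partner was near the eya-GAL4 suspensions. The log2 fold change of Cpr72Ec was 5.37 ± 1.63 (edgeR adjusted p = 0.028) in the eya-GAL4 comparison and -1.21 ± 1.18 (adjusted p = 0.48) in the tj-GAL4 comparison. The direction in the tj-GAL4 comparison depended on which suspension was kept. Without tj-GAL4 unsorted library 2, Cpr92A rose by 2.06 ± 0.48 (adjusted p = 0.0059) and Cpr72Ec by 3.04 ± 0.78 (adjusted p = 0.0098) in tj-GAL4 sorted cells. Without tj-GAL4 unsorted library 1, the values were -1.24 ± 0.37 (adjusted p = 0.025) for Cpr92A and -2.21 ± 0.49 (adjusted p = 0.0045) for Cpr72Ec. The eya-GAL4 call of Cpr92A was lost without any 1 of the 4 eya-GAL4 libraries (adjusted p up to 0.079, unsorted library 4), and that of Cpr72Ec without any 1 of the 6 libraries other than the tj-GAL4 unsorted ones (up to 0.14, unsorted library 4).

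Cpr100A (3R:30867521-30869184) had 9.51 and 8.67 CPM in eya-GAL4 sorted libraries, against 0.933 CPM and no read in eya-GAL4 unsorted libraries 3 and 4. No read in library 4 allows up to 0.133 CPM. In tj-GAL4 sorted libraries it had 7.26 and 5.23 CPM, against 2.53 and 0.392 CPM in tj-GAL4 unsorted libraries. The sorted libraries were higher in both crosses without overlap. Cpr100A gave a log2 fold change of 4.36 ± 1.24 (edgeR adjusted p = 0.023) in the eya-GAL4 comparison and 2.02 ± 1.08 (adjusted p = 0.23) in the tj-GAL4 comparison. Cpr66D (3L:8640439-8643584) had 2.27 and 1.94 CPM in eya-GAL4 sorted libraries, against 0.311 and 0.667 CPM in eya-GAL4 unsorted libraries. It had 6.81 and 3.02 CPM in tj-GAL4 sorted libraries, against 0.892 and 2.75 CPM in tj-GAL4 unsorted libraries. Cpr66D was thus most abundant in tj-GAL4 sorted cells, although it was called in the other cross. For Cpr66D the log2 fold change was 2.06 ± 0.74 (edgeR adjusted p = 0.048) in the eya-GAL4 comparison and 1.46 ± 0.68 (adjusted p = 0.18) in the tj-GAL4 comparison, and the tj-GAL4 comparison gave 2.42 ± 0.69 (adjusted p = 0.016) without tj-GAL4 unsorted library 2 and 0.82 ± 0.60 (adjusted p = 0.33) without library 1. The eya-GAL4 call of Cpr66D was lost without any 1 of the 6 libraries other than the tj-GAL4 unsorted ones (adjusted p up to 0.2, unsorted library 3), and that of Cpr100A without eya-GAL4 sorted library 1 (0.085), sorted library 2 (0.09) or unsorted library 4 (0.069). Over the 8 fits that leave out 1 library, the eya-GAL4 log2 fold change of Cpr100A ran from 3.27 to 10.37; the highest came without unsorted library 3, where the remaining suspension had no read and the fitted value is no bound.

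**Figure D3:**
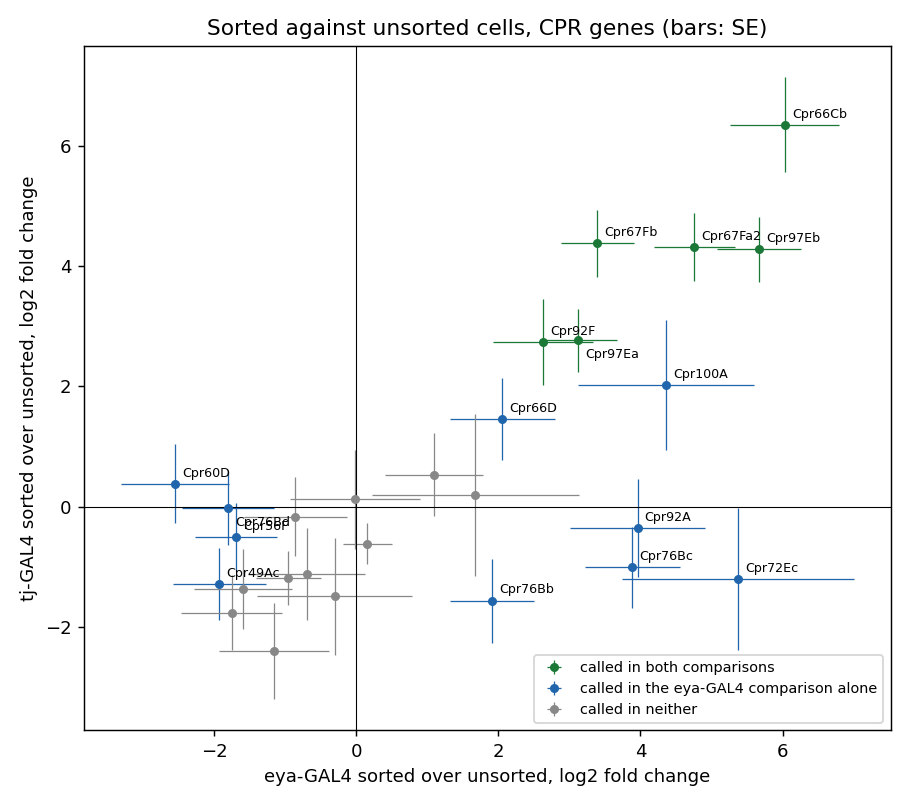
Log2 fold change of the 27 CPR genes between sorted and unsorted cells of the eya-GAL4 cross (x axis) and of the tj-GAL4 cross (y axis), with bars for 1 SE on each side; colours mark the genes called at an edgeR adjusted p under 0.05. The 6 genes called in both comparisons lie in the upper right, and Cpr92A, Cpr76Bc, Cpr72Ec and Cpr76Bb lie to the right but below 0 on the y axis.

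4 genes fell in eya-GAL4 sorted cells: Cpr56F, Cpr76Bd, Cpr49Ac and Cpr60D. Cpr56F (2R:20288371-20291945) had the highest mean level per length of the CPR genes in the suspensions, at 20.6 ± 15.7 CPM per kb in tj-GAL4 suspensions and 28.7 ± 3.31 CPM per kb in eya-GAL4 suspensions (SD, n = 2 each). In tj-GAL4 suspensions it did not differ from Cpr51A beyond its spread, and in library 2 it was at 9.54 CPM per kb, below Cpr51A at 20.1 CPM per kb. It had 11.2 and 11.3 CPM in eya-GAL4 sorted libraries, against 33.2 and 39.1 CPM in eya-GAL4 unsorted libraries. It had 11.5 and 25.1 CPM in tj-GAL4 sorted libraries, against 39.9 and 12.01 CPM in tj-GAL4 unsorted libraries. The eya-GAL4 groups were well apart, while the tj-GAL4 groups overlapped because the unsorted library 2 was low. The log2 fold change of Cpr56F was -1.69 ± 0.58 (edgeR adjusted p = 0.041) in the eya-GAL4 comparison and -0.51 ± 0.56 (adjusted p = 0.54) in the tj-GAL4 comparison, and the tj-GAL4 value turned with the suspension kept: it was -1.14 ± 0.37 (adjusted p = 0.03) without tj-GAL4 unsorted library 2 and 0.62 ± 0.42 (adjusted p = 0.29) without library 1. Cpr76Bd (3L:19532743-19538289) had 1.45 and 2.79 CPM in eya-GAL4 sorted libraries, against 7.03 and 8.002 CPM in eya-GAL4 unsorted libraries, with a log2 fold change of -1.80 ± 0.65 (edgeR adjusted p = 0.048). In the tj-GAL4 cross its sorted and unsorted libraries overlapped, with 2.47 and 6.27 CPM sorted, against 6.543 and 2.36 CPM unsorted.

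The other 2 were low throughout. Cpr49Ac had 0.620 and 0.364 CPM in eya-GAL4 sorted libraries, against 1.43 and 2.22 CPM in eya-GAL4 unsorted libraries, with a log2 fold change of -1.93 ± 0.65 (edgeR adjusted p = 0.04). Cpr60D had 0.207 and 0.182 CPM in eya-GAL4 sorted libraries, against 1.12 and 1.2 CPM in eya-GAL4 unsorted libraries, with a log2 fold change of -2.55 ± 0.76 (edgeR adjusted p = 0.026). Neither pair of groups overlapped. For Cpr60D only the eya-GAL4 unsorted libraries reached 1 CPM, so it passed the filter through the group where it was high. All 4 calls were lost without any 1 of the 4 eya-GAL4 libraries, with adjusted p up to 0.17 for Cpr56F (sorted library 2), 0.22 for Cpr76Bd (sorted library 1), 0.21 for Cpr49Ac (sorted library 2) and 0.14 for Cpr60D (sorted library 2). Cpr56F also lost its call without tj-GAL4 sorted library 1 (0.053), and Cpr76Bd without tj-GAL4 sorted library 1 (0.054) or 2 (0.052). The summed markers of 5 other cell types were lower in eya-GAL4 sorted cells as well. The 8 accessory gland and ejaculatory duct markers found summed to 820 and 1090 CPM in eya-GAL4 sorted libraries, against 2756 and 3872 CPM in eya-GAL4 unsorted libraries, and the 8 fat body markers to 21.4 and 20.9 CPM in eya-GAL4 sorted libraries, against 45.5 and 48.9 CPM in eya-GAL4 unsorted libraries. The 10 sheath muscle genes summed to 364 and 327 CPM in eya-GAL4 sorted libraries, against 487 and 961 CPM in eya-GAL4 unsorted libraries, and the 12 germline markers to 1564 and 1708 CPM in eya-GAL4 sorted libraries, against 2686 and 3185 CPM in eya-GAL4 unsorted libraries. The 7 hemocyte markers summed to 107 and 111 CPM in eya-GAL4 sorted libraries, against 173 and 125 CPM in eya-GAL4 unsorted libraries. Not every member fell: srp of the hemocyte list rose (47.96 and 48.1 CPM, against 19.97 and 15.4 CPM). Also higher in sorted cells were He of that list, at very few reads, and Fbp1 and Yp2 of the fat body list. In the muscle list Mlc1, Mlc2, Mp20, up, TpnC41C and Mef2 overlapped. So did Lsp1beta, Yp1 and Adh (fat body), Dup99B (accessory gland), Mst87F (germline) and eater (hemocytes). The 8 pigment cell and terminal epithelium markers summed higher, at 431.5 and 448 CPM sorted, against 227 and 249 CPM unsorted. Of these sums, w gave 269 and 285 CPM sorted, against 15.2 and 21.2 CPM unsorted, and so made up most of each sorted sum. Nep4 was lower, with 78.1 and 75.5 CPM sorted, against 188 and 205.5 CPM unsorted. The rest were mixed: st, bw, hh and Sox100B were higher, and pn and upd3 overlapped. The part of these cell types in the falls was not tested.

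The remaining 11 genes were called in neither comparison. Cpr51A (2R:14512559-14515211) was the steadiest of the abundant ones. It had 6.21 and 7.74 CPM in tj-GAL4 sorted libraries, against 8.37 and 13.1 CPM in tj-GAL4 unsorted libraries. It had 10.96 and 11.8 CPM in eya-GAL4 sorted libraries, against 9.77 and 10.6 CPM in eya-GAL4 unsorted libraries. The sorted and unsorted groups of each cross lay close together, though without overlap. The log2 fold changes were -0.61 ± 0.35 (edgeR adjusted p = 0.25) in the tj-GAL4 comparison and 0.16 ± 0.34 (adjusted p = 0.71) in the eya-GAL4 comparison. Cpr47Ee had 5.01 and 10.4 CPM in tj-GAL4 sorted libraries, against 15.02 and 20.3 CPM in tj-GAL4 unsorted libraries, with a log2 fold change of -1.19 ± 0.44 (edgeR adjusted p = 0.12). In the eya-GAL4 cross it had 4.14 and 2.49 CPM sorted, against 6.60 and 6.14 CPM unsorted, at -0.96 ± 0.46 (adjusted p = 0.11). Cpr31A was lower in sorted cells at -1.36 ± 0.67 (edgeR adjusted p = 0.2) and -1.59 ± 0.69 (adjusted p = 0.084), neither past the threshold. Cpr67B ran from 0.934 to 6.19 CPM over the 8 libraries, Cpr78Cc from 0.449 to 1.67 CPM and Cpr65Ec from 0.299 to 1.88 CPM. The other 5 of the 11 ran between 0 and 5.57 CPM. One of them, Cpr73D, shares 294 of its 3030 exonic bases with Nc73EF on the opposite strand, a gene with 1445 reads or more in every library.

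Ordered by level per length, the sorted cells had the same 3 genes at the top. In tj-GAL4 sorted cells these were Cpr66Cb (54.5 ± 32.4 CPM per kb, SD, n = 2), Cpr97Eb (39.4 ± 8.37) and Cpr67Fb (33.6 ± 7.44), followed by Cpr56F (14.5 ± 7.60), Cpr67Fa2 (11.9 ± 2.72) and Cpr51A (10.7 ± 1.66). The first 3 did not differ beyond their spread, and neither did the next 3. In eya-GAL4 sorted cells Cpr66Cb (110.5 ± 0.318 CPM per kb) stood clear of Cpr97Eb (57.2 ± 8.81) and Cpr67Fb (51.2 ± 8.70), which did not differ beyond their spread. Cpr51A (17.5 ± 0.876), Cpr67Fa2 (16.8 ± 3.08), Cpr76Bc (9.45 ± 0.159), Cpr56F (8.91 ± 0.0645) and Cpr92A (8.73 ± 0.178) came next. In the suspensions the order was another one, with Cpr56F, Cpr51A (16.5 ± 5.15 in tj-GAL4, 15.6 ± 0.883 in eya-GAL4) and Cpr47Ee (12.8 ± 2.71 and 4.59 CPM per kb) among the first 4 in both crosses.

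The second comparison set the crosses against each other. Between tj-GAL4 and eya-GAL4 sorted cells no CPR gene passed edgeR's test, where 0.0239% of all genes were higher and 0.0875% lower at that threshold. At an unadjusted p under 0.05 there were 3 members. The share of all genes at that level is not given here, so this count is not set against other genes. DESeq2 called 2 members, beside 1.68% of all genes, and limma 1, beside 0.207%. Cpr76Bc gave the largest difference, -4.68 ± 0.71 on the log2 scale (edgeR adjusted p = 0.08), with 1.12 and 0.310 CPM in tj-GAL4 sorted libraries, against 17.6 and 17.2 CPM in eya-GAL4 sorted libraries. Cpr76Bb followed at -3.93 ± 0.69 (edgeR adjusted p = 0.11), with 0.150 and 0.194 CPM in tj-GAL4 sorted libraries, against 2.89 and 2.67 CPM in eya-GAL4 sorted libraries. Neither pair of groups overlapped. Fitted without tj-GAL4 unsorted library 2, which is in neither of these groups but enters the shared fit, the difference passed for both genes, at -4.77 ± 0.54 (adjusted p = 0.00057) for Cpr76Bc and -3.97 ± 0.64 (adjusted p = 0.0064) for Cpr76Bb. Without tj-GAL4 unsorted library 1 the difference was -4.74 ± 0.53 for Cpr76Bc and -3.92 ± 0.65 for Cpr76Bb. Of all genes tested, 2.32% were higher and 3.42% lower in the fit without library 2. Over the 27 genes, 5 were higher and 9 lower in tj-GAL4 sorted cells without overlap, beside 29.3% and 27.6% of all genes. The 6 genes that rose in both crosses gave no call between the sorted cells. Cpr66Cb, for example, had a mean of 54.5 CPM per kb in tj-GAL4 sorted cells and 110.5 CPM per kb in eya-GAL4 sorted cells.

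Whether the sorted-to-unsorted ratio differed between the crosses was tested as an interaction. No CPR gene passed by edgeR, where 0.0% of all genes did, and the smallest adjusted p was 0.31. DESeq2 called 3 members (with 3 given no adjusted p), beside 2.62% of all genes, and limma 1, beside 0.406%. At an unadjusted p under 0.05 in edgeR there were 5 members, without a share of all genes at that level to set beside them. The 5 were Cpr76Bc (-4.90 ± 0.93, the tj-GAL4 minus the eya-GAL4 log2 ratio), Cpr72Ec (-6.58), Cpr92A (-4.31), Cpr76Bb (-3.48 ± 0.92) and Cpr60D (2.93). Their adjusted p was 0.31 for Cpr76Bc and 0.33 for the others. Cpr76Bc passed by DESeq2 (adjusted p = 0.00023) and by limma (0.028). In edgeR its value was -4.29 ± 0.91 without tj-GAL4 unsorted library 1 and -5.32 ± 0.78 without library 2. For Cpr72Ec the edgeR value was -7.59 ± 0.83 without tj-GAL4 unsorted library 1 and -2.33 ± 1.13 without library 2. For Cpr92A it was -5.20 ± 0.53 without library 1 and -1.87 ± 0.60 without library 2. The size of both differences thus depended on which suspension was kept. Of all genes tested, 0.103% were higher and 0.406% lower for the interaction in the fit without library 2. A call in the eya-GAL4 comparison alone is therefore not a shown difference between the crosses for these genes.

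Between the 2 kinds of suspension no CPR gene passed by edgeR, where 0.0716% of all genes did. DESeq2 called 2 (3.09% of all genes) and limma 0 (1.36%). In edgeR 6 members had an unadjusted p under 0.05, again without a share of all genes at that level. Without overlap, 7 members were higher and 3 lower in tj-GAL4 suspensions, beside 23.1% and 11.5% of all genes. Without tj-GAL4 unsorted library 1, 8 members passed, with 3943 of all genes, and without library 2 no member did, with 0.469% of all genes higher and 0.804% lower. The tj-GAL4 suspensions differed from each other in several CPR genes. Of 32 members with at least 10 reads in a suspension, 14 were higher in tj-GAL4 unsorted library 2 than in the other 3 suspensions and 10 were lower than in all 3. The same was not counted over all genes, so these numbers do not set the CPR genes apart. Cpr49Ah, which missed the filter because a single library held nearly all its reads, had 198 reads (15.5 CPM) there and at most 0.489 CPM in the other 3, a ratio of 31.8 to the highest of them. Cpr72Ec stood 39.1 times and Cpr92A 9.99 times above the highest of the other 3. Cpr47Ea, named after its values were seen, had 31 reads in this library, 3 in library 1 and none in the other 6. No other of the 32 members exceeded the other suspensions by over 5 times. Fat body markers were higher in this library, as given above, and the accessory gland markers summed to 2987 CPM there, with 1009 CPM in its partner and 2756 and 3872 CPM in the eya-GAL4 suspensions. Their part in the CPR values was not tested.

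**Figure D4:**
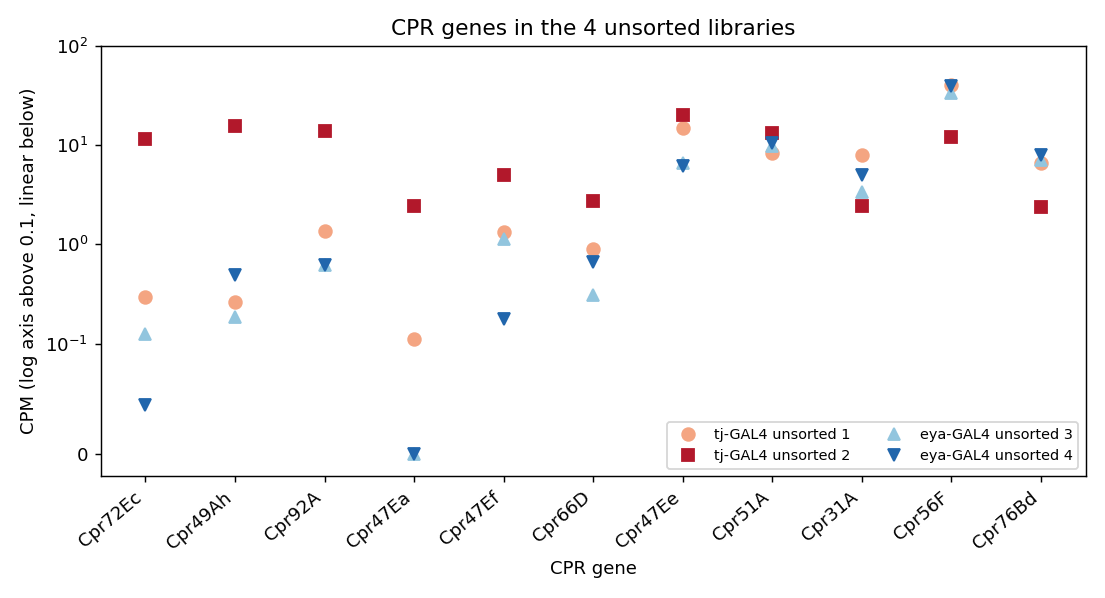
CPM of 11 CPR genes in the 4 unsorted libraries, on an axis that is logarithmic above 0.1 and linear below. The tj-GAL4 unsorted library 2 (dark squares) lies above the other 3 libraries for Cpr72Ec, Cpr49Ah, Cpr92A and Cpr47Ea and below them for Cpr31A, Cpr56F and Cpr76Bd.

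With that library left out, the tj-GAL4 comparison called 11 members: 9 rose and 2 fell, beside 24.8% and 10.7% of all genes. The 9 were the 6 genes above with Cpr66D, Cpr72Ec and Cpr92A, and Cpr31A (-1.98 ± 0.52, edgeR adjusted p = 0.011) and Cpr56F fell. With tj-GAL4 unsorted library 1 left out instead, 7 rose and 5 fell, beside 26.8% of all genes called in either direction; Cpr31A was then at -0.23 ± 0.60 (adjusted p = 0.8) and Cpr56F at 0.62 ± 0.42 (adjusted p = 0.29), so both falls depended on the suspension kept. The lone tj-GAL4 suspension is in each case assumed to vary like the other groups. In the eya-GAL4 comparison 12 members rose and 7 fell in the fit without library 2, beside 34.1% and 32.7% of all genes.

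CPR genes lie in clusters, and neighbours did not always behave alike. In the 76B cluster on 3L, 4 CPR genes lie in a row with gaps of 1316, 525 and 5470 bases. Cpr76Ba, at the start, had 3 reads in all libraries together. The next genes, Cpr76Bb and Cpr76Bc, rose in eya-GAL4 sorted cells, and Cpr76Bd fell there. Per length, Cpr76Bc reached 9.45 CPM per kb in eya-GAL4 sorted cells, against 0.626 CPM per kb in eya-GAL4 suspensions. In the 97E pair both genes rose in both crosses, but Cpr97Eb was the more abundant by far. In the 67F group Cpr67Fa2 and Cpr67Fb rose in both crosses and Cpr67Fa1 was almost unread. In the 47E cluster Cpr47Ee and Cpr47Ef lie 58 bases apart on opposite strands, and neither was called. Cpr72Eb, 186 bases from Cpr72Ec on the other strand, missed the filter.

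**Figure D5:**
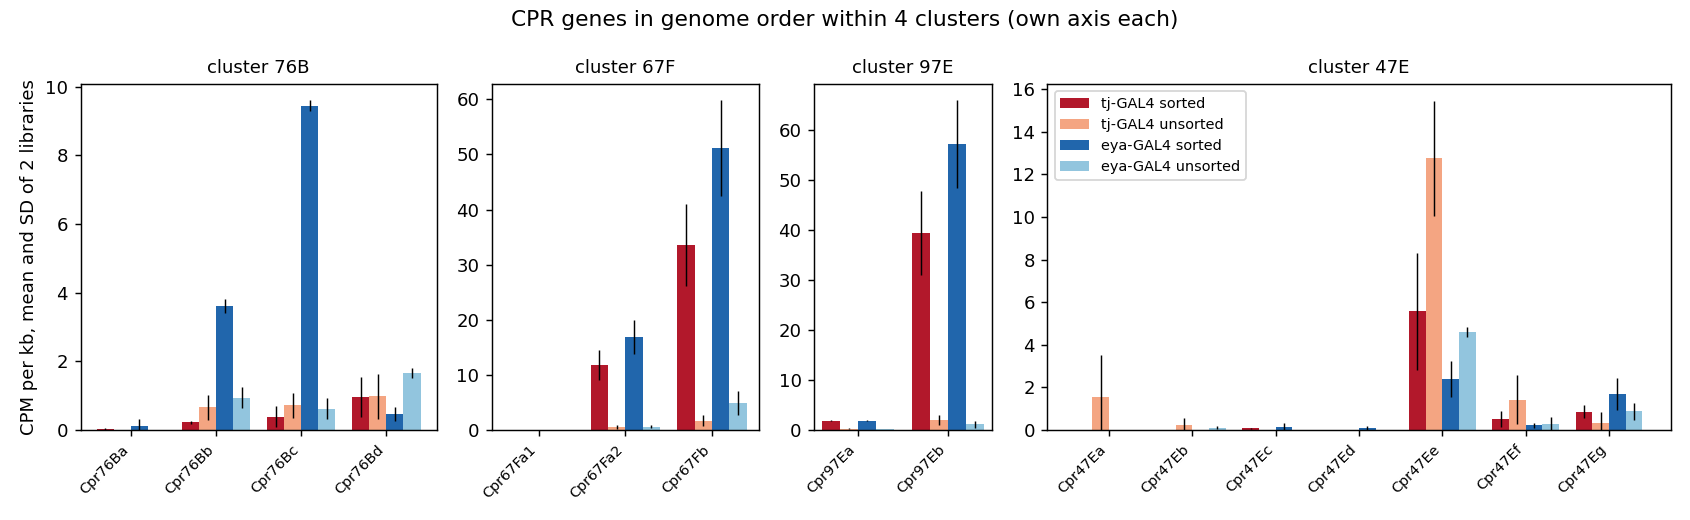
Level per length (CPM per kb, bars show the mean and SD of 2 libraries) of the CPR genes in 4 genomic clusters, in genome order, with a separate axis for each cluster. In the 76B cluster Cpr76Bb and Cpr76Bc stand out in eya-GAL4 sorted cells while Cpr76Bd is highest in eya-GAL4 suspensions; in the 67F and 97E clusters both kinds of sorted cell are high.

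Other genes of the cuticle were taken as lists. Of 28 genes listed for other proteins with the Rebers and Riddiford consensus, 21 were found, and 4 of the 21 passed the filter. Of these, 1 rose and 0 fell in tj-GAL4 sorted cells, and 2 rose and 1 fell in eya-GAL4 sorted cells. Pcp, a pupal cuticle protein, had 8.31 and 5.15 CPM in tj-GAL4 sorted libraries, against 0.186 and 0.942 CPM in tj-GAL4 unsorted libraries (log2 fold change 3.70 ± 0.70, edgeR adjusted p = 0.014). In the eya-GAL4 cross it had 14.99 and 15.9 CPM sorted, against 0.187 and 0.356 CPM unsorted (5.76 ± 0.75, adjusted p = 0.0014). Ccp84Ac rose in eya-GAL4 sorted cells, with 4.96 and 4.73 CPM, against 0.0622 and 0.0889 CPM in suspensions (5.85 ± 0.98, edgeR adjusted p = 0.0035). The gene resilin, for an elastic cuticle protein, fell there (-2.20 ± 0.70, edgeR adjusted p = 0.032). Of the Tweedle family, another group of cuticle proteins, 23 of 25 listed genes were found and 6 passed. None was called in the tj-GAL4 comparison. In the eya-GAL4 comparison TwdlT rose (3.93 ± 0.77, edgeR adjusted p = 0.0061) while Twdlalpha and TwdlL fell. The median log2 fold changes were 1.28 and -0.86 for these 2 lists in the tj-GAL4 comparison and 3.14 and -1.29 in the eya-GAL4 comparison.

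Beside the lists above and those that follow, 8.98% of all genes tested rose and 2.38% fell in tj-GAL4 sorted cells. In eya-GAL4 sorted cells 28.0% rose and 20.0% fell. Of 16 genes for chitin synthesis and organisation that passed, 10 rose and 0 fell in eya-GAL4 sorted cells (median log2 fold change 1.81), and 3 rose and 2 fell in tj-GAL4 sorted cells (0.67). The chitin deacetylase gene serp rose in both, by 3.33 ± 0.43 (edgeR adjusted p = 0.0033) and 2.84 ± 0.42 (adjusted p = 0.0023), as did snsl, by 5.12 ± 0.81 (adjusted p = 0.007) and 4.59 ± 0.74 (adjusted p = 0.003), and exp, by 2.86 ± 0.64 (adjusted p = 0.026) and 2.16 ± 0.61 (adjusted p = 0.022). The gene mmy, for the enzyme that makes the sugar nucleotide from which chitin is built, rose in eya-GAL4 sorted cells (1.58 ± 0.31, edgeR adjusted p = 0.0062). Among 16 chitinase and imaginal disc growth factor genes, 4 rose and 1 fell in tj-GAL4 sorted cells, and 6 rose and 2 fell in eya-GAL4 sorted cells (medians -0.34 and 1.01). Idgf3 had 1097 and 747 CPM in tj-GAL4 sorted libraries, against 103 and 242 CPM in tj-GAL4 unsorted libraries (2.42 ± 0.48, edgeR adjusted p = 0.017). In the eya-GAL4 cross Idgf3 had 1299 and 1556 CPM sorted, against 89.4 and 82.5 CPM unsorted (4.05 ± 0.51, adjusted p = 0.0013). Idgf2 rose by 2.76 ± 0.37 (edgeR adjusted p = 0.0037) and 5.07 ± 0.42 (adjusted p = 0.00031), and the chitinase gene Cht2 by 2.47 ± 0.62 (adjusted p = 0.039) and 4.75 ± 0.69 (adjusted p = 0.002).

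Among 13 chitin-binding obstructor and peritrophin genes that passed, 1 rose and 1 fell in tj-GAL4 sorted cells, and 3 rose and 3 fell in eya-GAL4 sorted cells (median log2 fold changes -0.84 and -0.43). Gasp, an obstructor of the tracheal lumen, had 85.8 and 50.3 CPM in tj-GAL4 sorted libraries, against 5.43 and 4.95 CPM in tj-GAL4 unsorted libraries (3.71 ± 0.55, edgeR adjusted p = 0.0054). In the eya-GAL4 cross Gasp had 47.6 and 34.0 CPM sorted, against 2.80 and 0.889 CPM unsorted (4.49 ± 0.58, adjusted p = 0.0014). Mur82C (-3.29 ± 0.50, edgeR adjusted p = 0.0025) and Mur89F (-2.16 ± 0.43, adjusted p = 0.0065) fell in eya-GAL4 sorted cells. Peritrophin-15a fell in tj-GAL4 sorted cells (-7.52 ± 1.98, edgeR adjusted p = 0.046), with 0.449 and 1.39 CPM, against 3.64 and 356 CPM in suspensions, so that tj-GAL4 unsorted library 2 was far above the other 7. Of 11 tanning and pigmentation genes, 3 rose and 2 fell in tj-GAL4 sorted cells, and 3 rose and 1 fell in eya-GAL4 sorted cells (medians -0.04 and 0.92). The 3 risers in each were t, y and Ddc, which act in dopamine and melanin metabolism: t rose by 3.96 ± 0.39 (edgeR adjusted p = 0.0014) and 3.69 ± 0.38 (adjusted p = 0.00056), y by 3.38 ± 0.51 (0.0054) and 6.16 ± 0.62 (0.00051), and Ddc by 1.86 ± 0.35 (0.014) and 1.95 ± 0.35 (0.0044). The gene e fell in tj-GAL4 sorted cells (-4.64 ± 0.64, edgeR adjusted p = 0.0042). Of 10 genes for zona pellucida proteins of apical matrices, 2 rose and 1 fell in tj-GAL4 sorted cells, and 4 rose and 2 fell in eya-GAL4 sorted cells (medians 0.32 and 0.88). The gene m rose in both (3.26 ± 0.44, edgeR adjusted p = 0.0036, and 5.35 ± 0.48, adjusted p = 0.00037) and dpy, for a giant matrix protein, fell in both (-2.78 ± 0.30, adjusted p = 0.0019, and -3.82 ± 0.32, adjusted p = 0.00031). The gene zye rose in tj-GAL4 sorted cells (3.36 ± 0.72, edgeR adjusted p = 0.023), and tyn rose in eya-GAL4 sorted cells (2.53 ± 0.67, adjusted p = 0.018).

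Tracheal and epidermal cells are the usual sources of CPR transcripts, so their markers were read beside these values. The 7 trachea markers found summed to 180 and 143 CPM in tj-GAL4 sorted libraries, against 53.7 and 47.3 CPM in tj-GAL4 unsorted libraries. In the eya-GAL4 cross they summed to 144 and 113 CPM sorted, against 42.9 and 42.6 CPM unsorted. Gasp and serp, which are also among the cuticle genes above, made up most of the sorted sums. In the eya-GAL4 cross verm and pio were higher in sorted libraries too. The marker uif was lower there, with 4.14 and 4.37 CPM sorted, against 11.95 and 10.3 CPM unsorted. The defining tracheal regulator trh had at most 7 reads in any library, 0.449 CPM or less. The tracheal receptor gene btl had 4.94 and 2.87 CPM in tj-GAL4 sorted libraries, against 0.855 and 1.10 CPM in tj-GAL4 unsorted libraries, and 3.82 and 1.52 CPM in eya-GAL4 sorted libraries, against 1.37 and 0.889 CPM in eya-GAL4 unsorted libraries. The 6 epidermis markers summed to 96.0 and 63.8 CPM in tj-GAL4 sorted libraries, against 31.5 and 104 CPM in tj-GAL4 unsorted libraries. In the eya-GAL4 cross they summed to 85.2 and 72.5 CPM sorted, against 56.7 and 47.2 CPM unsorted, and 3 of the 6 (snsl, dy and kkv) also stand in the cuticle lists. In that cross kkv had 51.7 and 45.6 CPM sorted, against 18.5 and 18.05 CPM unsorted, and Duox and snsl were higher too. The gene grh was lower there, with 0.827 and 0.910 CPM sorted, against 5.41 and 5.91 CPM unsorted. So were vvl, with 3.41 and 3.82 CPM sorted, against 23.95 and 17.2 CPM unsorted, and dy. The part of either cell type in the CPR values was not tested.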

How the data were processed

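Counts per gene were deposited by the authors for 8 libraries, beside normalised values (RPM) that the authors computed on a larger total than the summed gene counts. Per the submitters' processing notes, FastQC, Bowtie 1.2.2, HTSeq, DESeq2 and genome build dm6 were used; those notes do not give the settings for strand and for reads matching several genes. 20 other columns of the table were not used. The eya-GAL4 unsorted columns, numbered 3 and 4 in the table, were assigned to their group only. Gene positions came from the Ensembl annotation of dm6.

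Members, lists and tests were chosen with earlier results of these data known. edgeR 4.0.16 (R 4.3.3) fitted all 8 libraries and 4 groups with TMM scaling, quasi-likelihood tests and 4 residual degrees of freedom, on the 12570 genes with at least 1 CPM in 2 libraries; p-values were adjusted over all of them by the Benjamini-Hochberg method. The scripts were tested on simulated data. Alternatives were RLE scaling, the authors' RPM total, DESeq2 1.42.0, limma 3.58.1 on log2(RPM + 1), no filter, a CPM minimum of 5, each library left out, the compared groups alone and a replicate block. Added after seeing the data were a term for index length and a crossed block. Confidence intervals and the floor of 3 reads cover counting error only, at 10771009 to 25344721 counts a library. Replicate numbers were not used to pair the libraries in the main fit, and whether same-numbered libraries belong together is not known here. Named were the members called in any comparison, the 8 with the highest level per length in each group, tested members beside a called one, and up to 3 called genes with the smallest p per other list and comparison. Sequences were not used here.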

Additional observations from a re-analysis of the deposited data

Results flagged for a closer look

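For 2 CPR genes the sorted libraries lay on opposite sides of their suspensions in the 2 crosses, without overlap in either. Of all genes tested, 22.9% were lower in tj-GAL4 sorted cells and 42.0% higher in eya-GAL4 sorted cells without overlap. How many genes showed both was not counted, so the pattern does not set these 2 genes apart. For Cpr76Bb the tj-GAL4 minus the eya-GAL4 log2 ratio was -3.48 ± 0.92 (edgeR adjusted p = 0.33): it was lower in tj-GAL4 sorted cells than in their suspension and higher in eya-GAL4 sorted cells than in theirs. For Cpr51A the difference was -0.77 ± 0.49 (edgeR adjusted p = 0.43). Cpr51A was called in neither comparison and Cpr76Bb in the eya-GAL4 comparison alone. Neither difference passed the threshold over all genes.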

How the results depend on the processing

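Of 22 calls of a CPR gene in a sorted-to-unsorted comparison, 9 held under every alternative run (Cpr66Cb, Cpr67Fa2, Cpr67Fb and Cpr97Eb in both, Cpr76Bc in eya-GAL4), and none reversed over 357 refits. The 16 members called in the eya-GAL4 comparison stood beside 48.0% of all genes. The count became 10 with the authors' RPM total (18.4% of all genes) and 10 by limma (17.9%). With a CPM minimum of 5, which leaves 13 members, it was 10, beside 5674 of 10207 genes. The 0 called between sorted cells became 1 with the authors' total, 2 by DESeq2, 1 by limma, 1 without a filter and 4 on those groups alone. Between suspensions 0 became 1 with the authors' total (1.26% of all genes) and 2 by DESeq2 (3.09%). For the interaction 0 became 1 with the authors' total (0.39%), 3 by DESeq2 (2.62%) and 1 by limma (0.406%). Leaving out 1 library gave 4 to 12 members in the tj-GAL4 comparison, 5 to 19 in the eya-GAL4 comparison, 0 to 2 between sorted cells, 0 to 8 between suspensions and 0 to 6 for the interaction. The cause was not tested. With the authors' total the median log2 fold change of all genes was -0.70 instead of -0.09 in the eya-GAL4 comparison and -0.18 instead of -0.08 in the tj-GAL4 comparison. Of all calls, 54.8% were then higher in tj-GAL4 sorted cells and 44.9% in eya-GAL4 sorted cells, instead of 79.1% and 58.3%; with DESeq2 the tj-GAL4 share was 58.2%, and with limma the shares were 57.4% and 40.5%. Over all genes the counts ran from 248 to 4456 (tj-GAL4), 1363 to 8977 (eya-GAL4), 0 to 1262 (sorted cells), 0 to 3943 (suspensions) and 0 to 4204 (interaction). These ranges over all genes span every alternative run, whereas the member ranges span only the fits that leave out 1 library. With the replicate block, 5 members were called in the tj-GAL4 comparison (Cpr92F was lost), beside 8.3% of all genes. Between sorted cells and for the interaction that block called 0 members, beside 0.0% of all genes. Same-numbered tj-GAL4 libraries deviated with r = -0.34, which does not settle whether they were paired. A crossed block called 6 members in the tj-GAL4 comparison, beside 21.0% of all genes. The index is shorter in library 1 of both tj-GAL4 groups than in the other libraries. With a term for index length, the eya-GAL4 calls of Cpr56F (edgeR adjusted p = 0.056), Cpr66D (0.065) and Cpr76Bd (0.066) were lost. In that fit 46.6% of all genes were called in the eya-GAL4 comparison. With 2 libraries a group, low genes were tested at limited depth.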
